A study of Rattus norvegicus with 8 samples.

Results

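The sphingomyelinase and ceramide enzymes described here are 7 genes, matched by symbol in the deposited count table: the sphingomyelinases Smpd1, Smpd2 and Smpd3, the ceramidase Asah1, the sphingomyelin synthase Sgms1, and Sptlc1 and Sptlc2, subunits of serine palmitoyltransferase. All 7 were found among the 17055 rows, and all 7 were among the 10522 genes tested. The samples were whole diaphragm, the main muscle of inspiration, from Sprague-Dawley rats at 16 weeks after surgery. In 4 rats a myocardial infarction (MI) had been made by tying off the left anterior descending coronary artery, and 4 Sham rats had the same chest surgery without the tie. Each rat gave 1 library, and MI animals are numbered 1 to 4 and Sham animals 5 to 8. Infarct size and heart function of each animal were not analysed here.

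Sphingomyelinases cut sphingomyelin, a lipid of the cell membrane, into ceramide. Ceramide is also built from serine and palmitate by a route that opens with serine palmitoyltransferase, is turned back into sphingomyelin by sphingomyelin synthases, and is broken down to sphingosine by ceramidases, after which sphingosine kinases make sphingosine 1-phosphate. Ceramide made by sphingomyelinase has been proposed to raise oxidants and weaken the diaphragm in heart failure, which is the question these transcripts bear on. Enzyme activity and ceramide were not among the data, so every value below is an RNA level.

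The libraries held 7941402 to 24967251 counts. Of 8 skeletal muscle fibre markers, all 8 were present, and together they summed to between 105500 and 135800 counts per 1000000 (CPM, scaled by the trimmed mean of M values, TMM) in MI libraries and between 112500 and 131600 CPM in Sham libraries. Sham replicate 7 stood apart in its immune content, with lymphocyte markers summing to 71.2 CPM and macrophage and monocyte markers to 357.7 CPM. The highest of the other libraries had 34.8 and 275.9 CPM, both in MI replicate 4.

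Of the 7 genes, Asah1 was the 1 whose groups did not overlap, as was so for 4.55% of all genes tested. Asah1 encodes acid ceramidase, the lysosomal enzyme that splits ceramide into sphingosine and a fatty acid. It had 193.4, 202.7, 187.9 and 232.3 CPM in MI replicates 1 to 4, against 172.3, 157.4, 159.9 and 169.2 CPM in Sham replicates 5 to 8. Every MI library lay above every Sham library, and the nearest pair was MI replicate 3 at 187.9 CPM and Sham replicate 5 at 172.3 CPM. The means were 204.1 ± 19.8 CPM in MI and 164.7 ± 7.18 CPM in Sham (SD, n = 4 each). On the log2 scale the fold change was 0.31 ± 0.08 (SE), or 1.24-fold. Its 95% interval ran from 1.09-fold to 1.40-fold. In edgeR's quasi-likelihood test the unadjusted p was 0.00306, the 47th smallest of all genes tested, and the adjusted p was 0.6005, so Asah1 did not pass the threshold of 0.05. Bulk RNA cannot tell more Asah1 RNA per cell from more cells that carry it.

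Because the groups did not overlap for Asah1, leaving out 1 library could hardly turn the direction of the difference, only change its size. With each library left out in turn the log2 fold change of Asah1 lay between 0.24, without MI replicate 4, and 0.35, without MI replicate 3. DESeq2 gave an unadjusted p of 0.000671 and an adjusted p of 0.208, the lowest adjusted p over the alternatives, whose highest was 0.868. The animal numbers in the labels fall in 2 ranges, which the labels do not explain. Within the lower range, with 2 MI animals and 1 Sham animal, the log2 difference was 0.20, and within the higher, with 2 MI and 3 Sham, it was 0.37. The lack of overlap fixed the sign of both. Markers of other cell types were summed in the same libraries. All 4 red blood cell markers had a log2 fold change above 0, none was at 0 in any library, and they summed to between 224.1 and 486.0 CPM in MI libraries and between 139.4 and 216.6 CPM in Sham libraries. Schwann cell and nerve markers, of which 5 of 5 tested had a log2 fold change above 0, summed to 126.8 to 167.2 CPM in MI libraries and 97.1 to 134.6 CPM in Sham libraries. Fibroblast markers, with 3 of 5 above 0, summed to 1806 to 3263 CPM in MI libraries and 1674 to 2339 CPM in Sham libraries, and adipocyte markers, with 3 of 4 above 0, to 24.8 to 149.5 CPM in MI libraries and 28.9 to 79.5 CPM in Sham libraries. MI replicate 4, the library with the most Asah1, was the highest of the 8 in each of these 4 sets and, at 323.1 CPM, in endothelial markers. Of these sets the red blood cell markers did not overlap between the groups, and the others did. Macrophage and monocyte markers, of which 1 of 10 had a log2 fold change above 0, overlapped between the groups at 134.3 to 275.9 CPM in MI libraries and 146.4 to 357.7 CPM in Sham libraries. Of the 2 libraries richest in them, MI replicate 4 had 232.3 CPM of Asah1 and Sham replicate 7 had 159.9 CPM. The part of any of these cell types in the Asah1 difference was not tested.

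**Figure D1:**
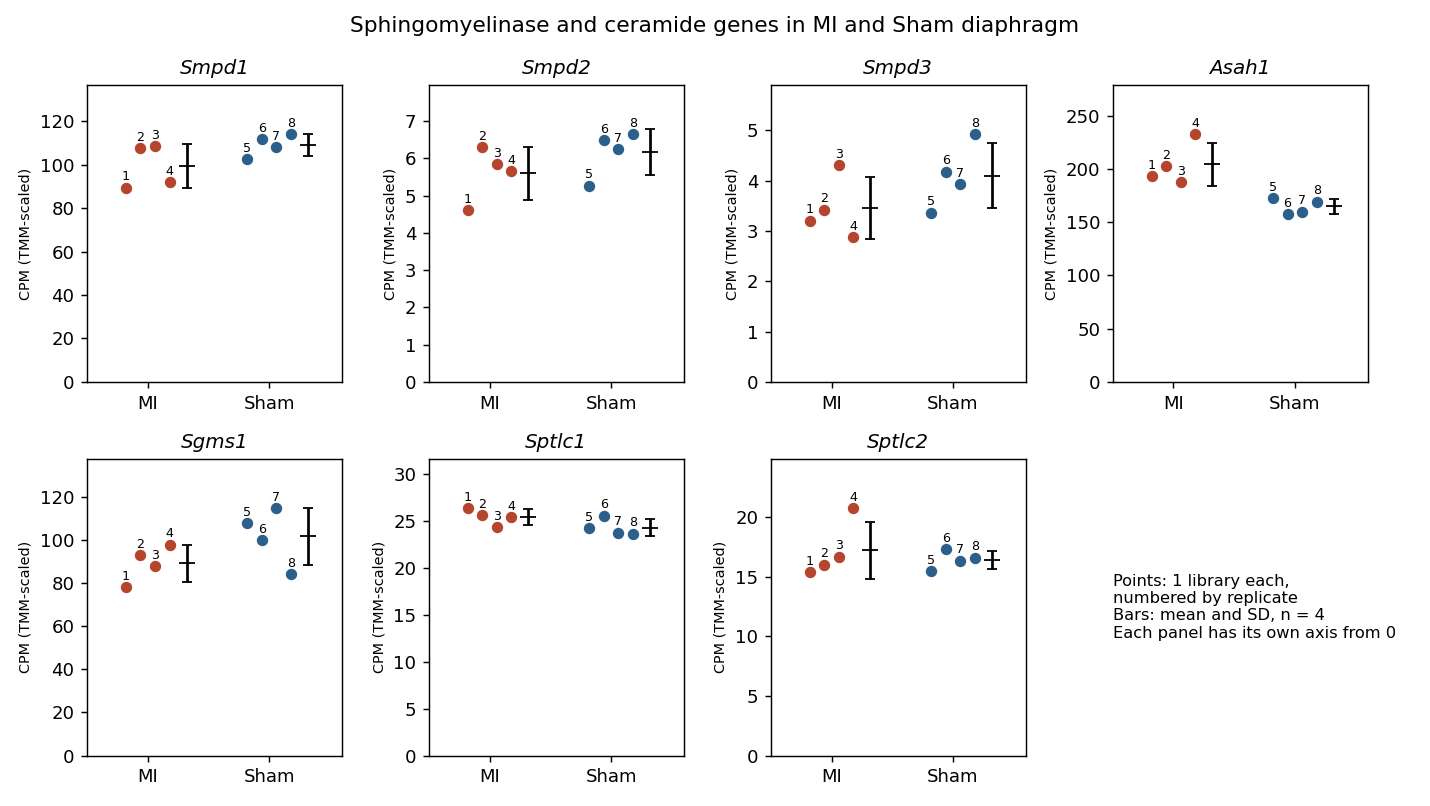
TMM-scaled CPM (y axis, from 0, a separate scale in each panel) of the 7 genes in MI (left, red) and Sham (right, blue) libraries, with 1 point per animal numbered by replicate and the mean ± SD of each group (n = 4). Asah1 alone of the 7 has no overlap, with MI at 187.9 to 232.3 CPM and Sham at 157.4 to 172.3 CPM. The 3 sphingomyelinases, Sgms1, Sptlc1 and Sptlc2 overlap. Of all genes tested, 4.55% have no overlap.

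The 3 sphingomyelinases had lower mean levels in MI than in Sham, and the groups overlapped for each of them. Smpd1, the acid sphingomyelinase of the lysosome, had 89.5, 107.8, 108.5 and 91.9 CPM in MI replicates 1 to 4, against 102.6, 111.8, 108.2 and 114.0 CPM in Sham replicates 5 to 8. MI replicates 1 and 4 lay below all Sham libraries, and MI replicates 2 and 3 lay among them. The log2 fold change was -0.13 ± 0.09 (edgeR unadjusted p = 0.148, adjusted p = 0.679), and its 95% interval ran from 0.799 to 1.04 times the Sham level.

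Smpd2, a neutral sphingomyelinase, had 4.61, 6.30, 5.84 and 5.65 CPM in the MI libraries, against 5.27, 6.50, 6.25 and 6.64 CPM in the Sham libraries. The lowest MI and the lowest Sham value belonged to MI replicate 1 and Sham replicate 5, and the groups overlapped. Its log2 fold change was -0.14 ± 0.15 (adjusted p = 0.808).

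Smpd3 encodes the neutral sphingomyelinase nSMase2, a membrane enzyme that responds to inflammatory and oxidant signals in many cell types. It had 3.21, 3.42, 4.32 and 2.88 CPM in the MI libraries, against 3.37, 4.18, 3.94 and 4.92 CPM in the Sham libraries. MI replicates 1 and 4 lay below the Sham libraries, and Sham replicate 8 above the MI libraries. These levels rested on 25 to 102 counts per library, so counting error is part of the spread. The log2 fold change was -0.23 ± 0.20 (unadjusted p = 0.263, adjusted p = 0.744). Its 95% interval ran from 0.632 to 1.15 times the Sham level, so a rise in MI beyond 1.15-fold lay outside it. For Smpd2 the interval ran from 0.718 to 1.15 times, with the same upper end. For Smpd4, a further neutral sphingomyelinase, it ran from 0.838 to 1.24 times, and the sphingomyelinase gene Smpd5 had no row.

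The shares of the 3 sphingomyelinases in their summed counts overlapped between the groups. Counts are not corrected for transcript length, so the shares do not rank the enzymes. Smpd3 took 3.29%, 2.91%, 3.64% and 2.87% in MI replicates 1 to 4, against 3.03%, 3.41%, 3.33% and 3.92% in Sham replicates 5 to 8. The means were 3.18% ± 0.361 in MI and 3.42% ± 0.370 in Sham (SD, n = 4 each). The share of Smpd2 was 5.16% ± 0.405 in MI and 5.15% ± 0.276 in Sham, and that of Smpd1 was 91.7% ± 0.242 in MI and 91.4% ± 0.598 in Sham.

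Across the 8 libraries Smpd1, Smpd2 and Smpd3 varied together. Smpd1 and Smpd2 had a Pearson r of 0.85 and a Spearman rho of 0.88 on log2 CPM, and r was 0.91 without the 2 libraries farthest from the median of Smpd1 and 0.82 after taking out the group means. Smpd1 and Smpd3 had an r of 0.85 and a rho of 0.95, and Smpd2 and Smpd3 an r of 0.65 and a rho of 0.76, and after taking out the group means r was 0.79 and 0.56 for these pairs. The r of Asah1 with each sphingomyelinase was below 0, and nearer to 0 within the groups. With Smpd1 it was -0.67, or -0.27 without the 2 libraries farthest from the median of Smpd1 and -0.43 after taking out the group means. With Smpd2 it was -0.38, or -0.76 without the 2 libraries farthest from the median of Smpd2 and -0.01 after taking out the group means. With Smpd3 it was -0.70, or -0.50 without the 2 libraries farthest from the median of Smpd3 and -0.58 after taking out the group means. These r values describe 8 libraries whose points share depth and scaling, and over all 21 pairs of the 7 genes r ran from -0.70 to 0.85. Genes outside these enzymes reached higher r, such as Sugp2 with Smpd1 at 0.99. The 250 bases before the starts of Smpd1 and Smpd2 are given, from RefSeq on build GRCr8, 5′ to 3′ on the strand of the gene. Whether these bases bear on the shared variation was not tested. Smpd1 lies at chr1:169304522-169304771 on the plus strand and Smpd2 at chr20:46571742-46571991 on the minus strand. Capitals mark the GC box GGGCGG and the CCAAT box, each on either strand.
Smpd1: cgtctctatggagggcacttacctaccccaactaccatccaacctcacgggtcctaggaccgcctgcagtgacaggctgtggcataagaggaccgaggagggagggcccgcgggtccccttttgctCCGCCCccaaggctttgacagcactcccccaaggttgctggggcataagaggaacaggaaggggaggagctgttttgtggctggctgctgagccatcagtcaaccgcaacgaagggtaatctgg
Smpd2: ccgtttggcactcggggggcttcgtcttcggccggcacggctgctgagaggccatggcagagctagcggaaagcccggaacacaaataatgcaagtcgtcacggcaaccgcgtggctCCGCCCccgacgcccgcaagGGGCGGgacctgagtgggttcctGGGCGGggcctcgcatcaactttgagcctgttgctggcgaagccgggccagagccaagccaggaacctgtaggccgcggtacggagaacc
The Smpd1 window held 1 GC box and the Smpd2 window 3, and neither held CCAAT or the TATA box TATAAA. Of 27457 rat promoter windows of this length, 32.4% held a GC box, 34.3% CCAAT and 13.1% TATAAA, and no matches overlapped in the windows printed here. Windows were matched by symbol for 5 of the 7 genes, all but Smpd3 and Asah1.

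**Figure D2:**
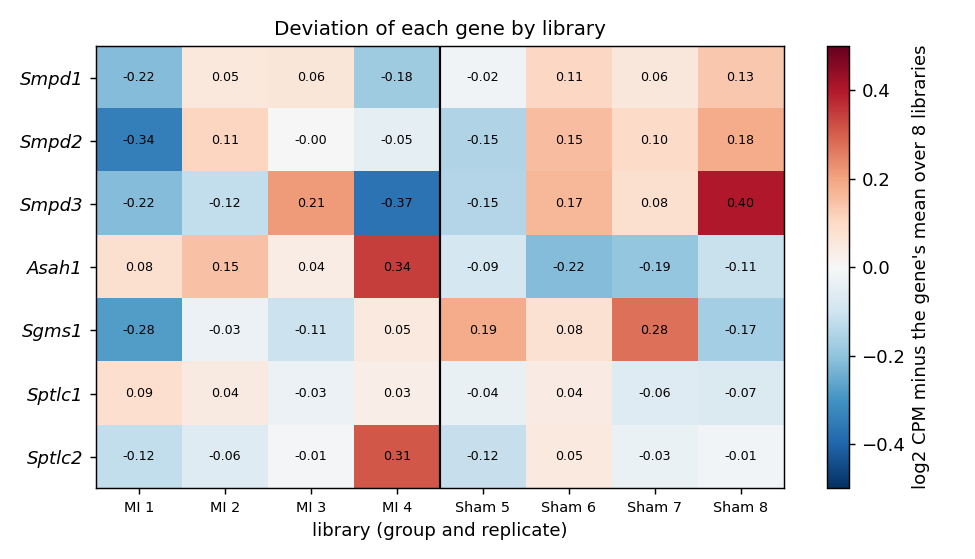
Deviation of each gene's log2 CPM from its mean over the 8 libraries (colour and printed value, log2 scale), with genes in rows and libraries in columns, MI left of Sham. Smpd1, Smpd2 and Smpd3 are all low in MI replicate 1 (-0.22, -0.34 and -0.22) and all high in Sham replicate 8 (0.13, 0.18 and 0.40), while Asah1 is above its mean in all 4 MI libraries and below it in all 4 Sham libraries.

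Sgms1, the Golgi enzyme that makes sphingomyelin from ceramide, had 77.95, 92.8, 87.8 and 97.8 CPM in MI replicates 1 to 4, against 107.7, 99.7, 114.6 and 84.0 CPM in Sham replicates 5 to 8. Sham replicate 8 lay below 3 of the 4 MI libraries, and the other 3 Sham libraries lay above all 4 MI libraries. The log2 fold change was -0.19 ± 0.11 (edgeR unadjusted p = 0.102, adjusted p = 0.643), with a 95% interval from 0.743 to 1.03 times the Sham level. Without Sham replicate 8 it was -0.27, and the unadjusted edgeR p was then 0.0199 and the adjusted p 0.757. Other omissions brought it nearer to 0. It was -0.13 without Sham replicate 7 (edgeR unadjusted p = 0.250) and -0.14 without MI replicate 1 (edgeR unadjusted p = 0.227).

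Serine palmitoyltransferase, the enzyme of the first step of ceramide synthesis, had the differences nearest to 0 of the 7 genes. Sptlc1, a subunit needed for a stable enzyme, had 26.3, 25.6, 24.3 and 25.4 CPM in the MI libraries, against 24.2, 25.5, 23.7 and 23.6 CPM in the Sham libraries. The 8 values lay between 23.6 and 26.3 CPM and overlapped, with coefficients of variation of 3.28% in MI and 3.64% in Sham. The log2 fold change was 0.07 ± 0.08 (adjusted p = 0.839), and its 95% interval ran from 0.921 to 1.19 times the Sham level. Sptlc2, the catalytic subunit, had 15.4, 16.0, 16.7 and 20.8 CPM in the MI libraries, against 15.5, 17.3, 16.4 and 16.6 CPM in the Sham libraries. MI replicate 4 was the high library, and the other 7 lay between 15.4 and 17.3 CPM. The log2 fold change was 0.06 ± 0.12 (adjusted p = 0.893), and it was -0.04 without MI replicate 4.

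The subunits are partners in 1 enzyme, and their RNA levels had a Pearson r of 0.11 and a Spearman rho of -0.19 over these libraries. The r was 0.46 without the 2 libraries farthest from the median of Sptlc1 and -0.03 after taking out the group means, and it rests on the small spread of Sptlc1, which had 192 to 615 counts per library. The log2 ratio of Sptlc1 to Sptlc2 counts was 0.57 ± 0.211 in MI and 0.56 ± 0.0591 in Sham (SD, n = 4 each), and its lowest value, 0.29, belonged to MI replicate 4. Their promoter windows, shown because the genes encode partners in 1 enzyme and with the same capitals, differed in these motifs. Sptlc1 lies at chr17:12028939-12029188 on the plus strand and Sptlc2 at chr6:112762471-112762720 on the minus strand.
Sptlc1: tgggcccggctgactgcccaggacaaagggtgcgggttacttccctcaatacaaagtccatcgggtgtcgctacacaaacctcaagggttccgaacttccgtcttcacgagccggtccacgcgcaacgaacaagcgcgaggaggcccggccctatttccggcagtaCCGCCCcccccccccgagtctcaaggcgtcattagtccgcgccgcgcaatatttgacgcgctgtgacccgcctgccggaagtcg
Sptlc2: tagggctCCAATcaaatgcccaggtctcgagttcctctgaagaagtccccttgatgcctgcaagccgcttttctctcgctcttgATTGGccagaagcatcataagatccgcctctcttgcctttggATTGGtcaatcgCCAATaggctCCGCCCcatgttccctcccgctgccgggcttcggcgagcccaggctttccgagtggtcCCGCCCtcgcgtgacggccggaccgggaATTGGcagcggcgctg
The Sptlc2 window held 5 CCAAT boxes and 2 GC boxes, and the Sptlc1 window 0 CCAAT boxes and 1 GC box. These matches are letters in a window and say nothing on which factors bind there.

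Over the 7 genes, 0 passed an adjusted p of 0.05 in edgeR, and so did 0% of the 10522 genes tested. At an unadjusted p under 0.05 the count was 1 of 7, Asah1, against 8.14% of all genes tested, and Asah1 was also the 1 of 7 whose groups did not overlap, against 4.55% of all genes. DESeq2 and limma-voom called 0 of the 7, and 14 and 0 of the 10522 genes tested. The median log2 fold change of the 7 was -0.13, where that of all genes was -0.0070, and the median size without regard to sign was 0.14, where that of all genes was 0.13. The biological coefficient of variation ran from 10.3% for Sptlc1 to 16.5% for Smpd3, and its median over all genes was 14.9%.

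The genes whose log2 CPM was most like that of each enzyme over the 8 libraries were taken from 6614 or 6615 others with a mean of at least 10 CPM, as a description. For Asah1 they were Lrat, which esterifies retinol, with a Pearson r of 0.98, and Bclaf1 with 0.96. For Smpd1 they were Sugp2 (0.99) and Sec16a (0.99), for Smpd2 Zfyve26 (0.98) and Clic4 (0.95), and for Smpd3 B4galt7 (0.97) and Parvb (0.96). For Sgms1 they were LOC314140 (0.95) and Tmem37 (0.93), for Sptlc1 Zmpste24 (0.97) and Xrcc5 (0.96), and for Sptlc2 Pi4ka (0.96) and Gla (0.95), the last a lysosomal galactosidase of glycosphingolipids.

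The 7 and the genes that act beside them made up 8 lists with 65 genes, of which 60 had a row and 49 were tested. None of the 49 passed in edgeR, DESeq2 or limma-voom, which called 0, 14 and 0 of all genes tested. At an unadjusted edgeR p under 0.05, 1 was higher in MI (Asah1) and 5 were lower (Sphk2, Smpdl3b, Spns2, Glb1 and Arsa), and the groups did not overlap for 4 of the 49. Over all genes tested, 386 were higher and 470 lower at that p, together the 8.14% given above, and the groups did not overlap for 4.55%.

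Downstream of acid ceramidase, the genes of sphingosine 1-phosphate gave the lowest median of the 8 lists, -0.20 on the log2 scale over 7 tested genes, of which 6 were below 0. Sphk2, a sphingosine kinase, had 27.7, 26.1, 27.4 and 23.1 CPM in MI replicates 1 to 4, against 34.5, 29.2, 35.0 and 43.2 CPM in Sham replicates 5 to 8. All MI libraries lay below all Sham libraries. The log2 fold change was -0.44 ± 0.12 (edgeR unadjusted p = 0.00439, adjusted p = 0.6005). With each library left out it stayed between -0.51 and -0.33, and without overlap between the groups its sign could hardly turn. Spns2, which exports sphingosine 1-phosphate, was at 5.02 ± 0.584 CPM in MI and 6.56 ± 0.701 CPM in Sham (SD, n = 4 each), with no overlap and a log2 fold change of -0.39 ± 0.15 (adjusted p = 0.6005). The receptor gene S1pr3 had a log2 fold change of 0.46 ± 0.21 (adjusted p = 0.608), which was 0.28 without MI replicate 2.

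Other sphingomyelinase-like genes were divided. Smpdl3b, whose protein sits in the membrane and affects its lipids, was at 7.81 ± 2.14 CPM in MI and 11.2 ± 1.84 CPM in Sham, a log2 fold change of -0.51 ± 0.20 (adjusted p = 0.6005). Smpdl3a, a relative of acid sphingomyelinase, was at 214.2 ± 33.1 CPM in MI and 186.3 ± 11.3 CPM in Sham (0.20 ± 0.11, adjusted p = 0.639). Smpd4, a further neutral sphingomyelinase, was at 14.0 ± 1.72 CPM in MI and 13.8 ± 1.56 CPM in Sham (0.03 ± 0.13, adjusted p = 0.961). Among the remaining ceramidases, Acer2 of the Golgi had a log2 fold change of 0.36 ± 0.33, the neutral ceramidase Asah2 0.12 ± 0.26 and the related amidase Naaa -0.23 ± 0.24. For Acer2 and Asah2 the sign turned when 1 library was left out, and Naaa turned without Sham replicate 7, which had 12.9 CPM where the other libraries had at most 8.21 CPM.

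Around sphingomyelin synthase, the ceramide carrier Col4a3bp had a log2 fold change of 0.22 ± 0.10 (adjusted p = 0.616) and Samd8, a synthase relative, 0.12 ± 0.19. Around serine palmitoyltransferase, the small subunit Sptssa had 0.10 ± 0.08 and the inhibitors Ormdl2 and Ormdl3 had 0.08 ± 0.08 and -0.40 ± 0.22 (adjusted p = 0.643 for Ormdl3). The later steps of synthesis had log2 fold changes from -0.11 for the ceramide synthase Cers4 to 0.13 for the reductase Kdsr over 5 tested genes, with the desaturase Degs1 at 0.12. Cers1 had 0 counts in all 8 libraries, although it is known as the ceramide synthase of skeletal muscle, and whether its reads were assigned to another row cannot be seen in the table.

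The ceramide 1-phosphate and glycosphingolipid enzymes had 9 of 13 genes below 0 and a median of -0.12. Of all 10522 genes tested, 5399 were below 0, and the median was -0.007. Glb1, the lysosomal beta-galactosidase, was at 12.2 ± 0.634 CPM in MI and 14.9 ± 1.72 CPM in Sham with no overlap, a log2 fold change of -0.29 ± 0.12 (adjusted p = 0.6005). Arsa, the lysosomal arylsulfatase A, was at 7.38 ± 0.853 CPM in MI and 9.30 ± 0.993 CPM in Sham (-0.34 ± 0.14, adjusted p = 0.6005). Ugt8, which makes the galactosylceramide of myelin, had a log2 fold change of 1.21 ± 0.55 on 5 to 34 counts per library (adjusted p = 0.610). Single libraries moved it, to 2.12 without Sham replicate 6 (edgeR unadjusted p = 0.00152, adjusted p = 0.741) and to 0.78 without Sham replicate 7. The Schwann cell and nerve markers, all 5 tested above 0, are given beside Asah1, and their part in the Ugt8 value was not tested. In the route from the TNF receptor to neutral sphingomyelinase, 3 of 6 genes were above 0. Tnfrsf1b, a TNF receptor, had a log2 fold change of -0.46 ± 0.33. It was -0.25 without Sham replicate 7, the library high in immune markers, -0.27 without MI replicate 2, -0.30 without MI replicate 1 and -0.72 without MI replicate 3. Gnb2l1, which encodes the scaffold RACK1, had 0.12 ± 0.08, and Eed 0.11 ± 0.10.

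**Figure D3:**
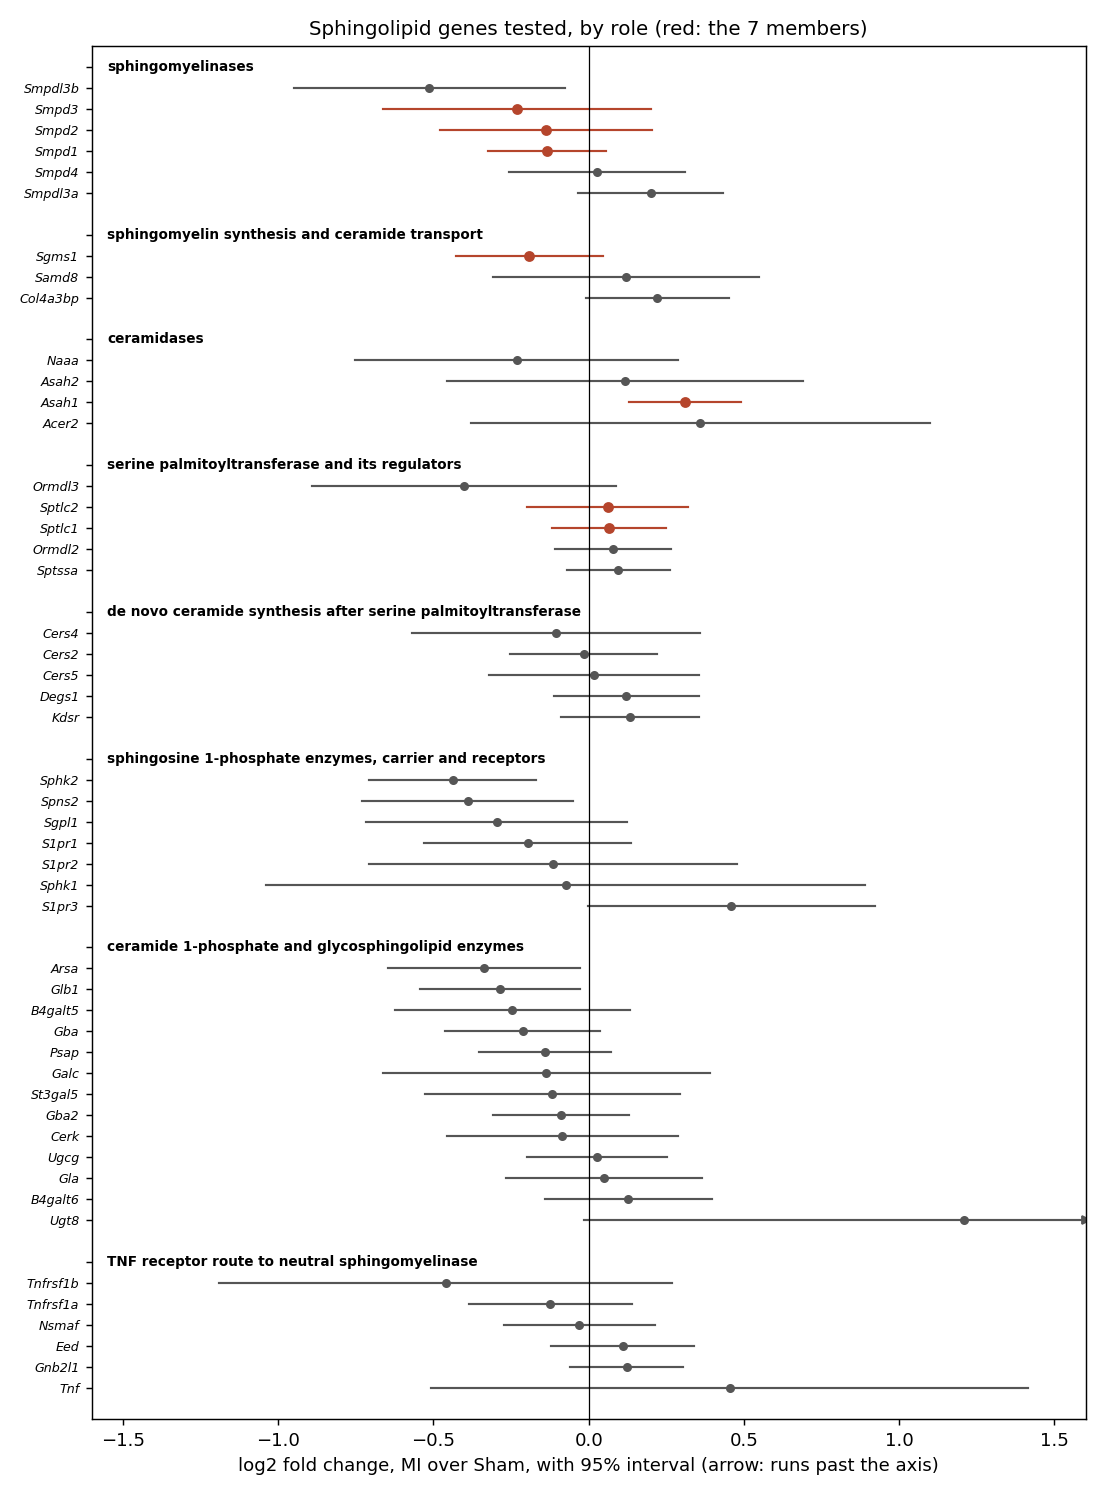
Log2 fold change, MI over Sham, with its 95% interval (x axis) for the 49 tested sphingolipid genes (y axis), grouped by role and ordered by value within each group, with the 7 enzymes in red. Of those 7 only the interval of Asah1 lies on 1 side of 0, and the intervals of Sphk2, Smpdl3b, Spns2, Glb1 and Arsa lie below it, before adjustment for the number of genes tested.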

How the data were processed

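Per the labels' protocols, total RNA of snap-frozen diaphragm was copied with a SMARTer low-input kit, which does not keep strand, so reads of overlapping genes are not separated. Of the 7 genes, Sptlc2 overlaps 2 annotated long noncoding RNAs (RefSeq, GRCr8). The authors deposited raw read counts per gene symbol, with 1 column per rat. STAR 2.5.0a, TopHat and Cufflinks on build rn5 come from the submitters' processing notes, and which program counted the reads is not given in the sources used here. Columns were matched to animals by name. Each rat gave 1 library, which was 1 replicate.

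Genes were tested with edgeR 4.0.16 (R 4.3.3; robust two-sided quasi-likelihood test, TMM, filterByExpr), with p-values adjusted by Benjamini-Hochberg over all 10522 genes tested and a threshold of 0.05. The 95% intervals come from that fit, 1 gene at a time. Correlations used log2 CPM with a prior count of 2. A count of 3 corresponds to 0.116 to 0.369 CPM, for counting error only.

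The 7 genes, lists and tests were chosen with earlier results of these data known. The text also names the 3 tested genes with the smallest p in each list and the 2 genes most correlated with each enzyme. It further names Smpd5, which had no row, and Cers1, which was chosen after its values were seen, as was Psap. Adgre1 was matched as Emr1. Alternatives were RLE scaling, library totals, 2 other filters, DESeq2 1.42.0, limma-voom (limma 3.58.1), no robust estimation, the animal number range as a term, a threshold of 0.1, each library left out, and each gene over the summed counts of the 7. The procedure was tested on simulated data, in which the changes put in were larger than those of the 7 genes.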

Additional observations from a re-analysis of the deposited data

Results flagged for a closer look

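In a group of 4 libraries, a value was marked when its gap to the nearest other library took a larger part of the range of the group than the critical value of Dixon's test at 0.05, which chance does in about 1 of 20 groups. Of 68 groups examined, 5 were marked. The share of Smpd2 among the counts of Smpd1, Smpd2 and Smpd3 was 4.74% in Sham replicate 5, where the other Sham libraries had 5.28% to 5.31%. Glb1 was at 13.12 CPM in MI replicate 3, where the other MI libraries had 11.76 to 11.99 CPM, which places that library nearest to the Sham range. Smpdl3a was at 169.5 CPM in Sham replicate 5, below the 190.4 to 193.8 CPM of the other Sham libraries. Eed was at 47.45 CPM in Sham replicate 5, above the 39.74 to 40.98 CPM of the other Sham libraries. Samd8 was at 33.91 CPM in Sham replicate 7, above the 20.43 to 21.28 CPM of the other Sham libraries. None of the CPM values of the 7 enzymes was marked.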

How the results depend on the processing

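None of the 7 enzymes passed the threshold in any of the 16 alternatives that give a test. The sign of the log2 fold change was the same for 6 of the 7 in these and in the 17th alternative, the gene over the summed counts of the 7, which has no test. Where the groups of a gene did not overlap, as for Asah1, leaving out a library could hardly turn the sign. Sptlc2 kept its sign in 16 and ranged from -0.0365, without MI replicate 4, to 0.1056 with libraries left out in turn. Smpd2 then ranged from -0.2118 to -0.0557 and Smpd3 from -0.3463 to -0.1456. DESeq2 called 14 genes over the table and none of the 7. With libraries left out, edgeR called 0 to 1 genes, the 1 arising without MI replicate 1 and without MI replicate 3, and the number at an unadjusted p under 0.05 was 514 (without Sham replicate 7) to 1090. None of the 49 list genes passed in any alternative. The alternatives on the unadjusted count and on the other named list genes were added after seeing the data. Of those 23 genes, 18 kept their sign in all 16 alternatives, and 5 turned when libraries were left out: Acer2 (-0.0212 to 0.5197), Asah2 (-0.1245 to 0.2806), Smpd4 (-0.048 to 0.1045), Naaa (-0.3576 to 0.0662) and Cers4 (-0.2532 to 0.0675). The cause was not tested beyond the library left out. No paired analysis was possible because MI and Sham animals share no replicate number. Smpd3 and Smpd2, with at most 162 counts a library, are limited by depth more than the other 5.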

Other observations

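A ratio of counts within a library needs no scaling between libraries. Asah1 had 2.16, 1.88, 1.73 and 2.53 counts for each count of Smpd1 in MI replicates 1 to 4, against 1.68, 1.41, 1.48 and 1.48 in Sham replicates 5 to 8. The groups did not overlap, and the nearest pair was MI replicate 3 at 1.73 and Sham replicate 5 at 1.68. Asah1 alone did not overlap either, so this ratio in part repeats that difference. For each count of Sphk2 there were 7.92 ± 1.49 counts of Asah1 in MI and 4.72 ± 0.63 in Sham (SD, n = 4 each). That these did not overlap follows from Asah1 lying higher and Sphk2 lower in every MI library than in every Sham library. For each count of Psap, the precursor of the saposins that present lipids to lysosomal enzymes, there were 0.199 ± 0.0394 counts of Asah1 in MI and 0.145 ± 0.0182 in Sham, and there MI replicate 3 (0.163) lay below Sham replicate 8 (0.165). These pairs were chosen after the values were seen, and no test is given for them.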
